A study of Sus scrofa with 8 samples.

Results

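Interleukin-1, tumour necrosis factor and related cytokines were followed in islets isolated from neonatal pigs. The group was a list of 10 genes, namely the ligands IL1A, IL1B, IL6, IL15, IL18 and TNF, the receptor chains IL1R1, IL1RAP and TNFRSF1A, and the receptor antagonist IL1RN. Every probe set that the array annotation gives under 1 symbol equal to one of these names was taken, which found 8 of the 10 genes, with 11 probe sets, among 6765 genes annotated in this way. IL1RN and IL1RAP had no such probe set and were not analysed here.

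Affymetrix porcine GeneChips were hybridised with RNA of islets from 7-day-old and from 3-day-old pigs, with 4 arrays per age and 1 array for each pig. All animals were male Duroc/Large white cross pigs, and their collagenase-digested pancreas was kept in culture for 7 days in medium with nicotinamide and isobutylmethylxanthine before RNA was taken. The arrays therefore measured islets after culture and not freshly isolated tissue. The study's methods call for an additional round of amplification where the input was low, and the sources do not say whether any of these samples had it.

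Interleukin-1 alpha and interleukin-1 beta bind the same receptor, IL1R1, which signals together with its partner chain IL1RAP, while IL1RN occupies the receptor without starting a signal. TNF acts through TNFRSF1A in most cell types, and both pathways end in the transcription factor NF-kappa B, which switches on chemokine, adhesion and prostaglandin genes. In islets, interleukin-1 beta and TNF are known for impairing beta cells in culture, and macrophages, duct cells and endothelial cells are among the possible sources of these cytokines.

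A probe set is a group of short oligonucleotides whose fluorescence is given as 1 intensity, on a linear scale that is the same for all arrays. Levels were compared between arrays for one probe set and not between probe sets. The 20th percentile of an array, between 26.4 and 31.3 in the 8 arrays, served as the mark of a low value. Of the 11 probe sets, 8 reached it in all 8 arrays, and these covered 6 of the 8 genes. TNF reached it in 1 of 4 arrays of 7-day-old pigs and in 4 of 4 of 3-day-old pigs, IL6 in 2 of 4 and in 4 of 4, and the dimmer of the IL1B probe sets in 1 array of each age. Where a gene had a pair of probe sets, they are called brighter and dimmer by their mean log2 intensity over the 8 arrays, as names only.

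Among the 11 probe sets, 6 were lower in islets from 7-day-old pigs and none was higher, by limma with p-values adjusted over all 21574 probe sets tested and a threshold of 0.05. These 6 probe sets belonged to 5 genes, TNF, TNFRSF1A, IL1A, IL1R1 and IL18. The share of 54.5% stood beside 10.7% of all probe sets tested that passed in either direction, with 5.47% lower and 5.21% higher in the older pigs. The ages did not overlap in 6 of the 11 probe sets, all lower in islets from 7-day-old pigs, against 21.2% of all probe sets tested with no overlap in either direction and 10.3% with the older pigs lower. The median log2 difference of the 11 probe sets was -0.64, and that of all probe sets tested was -0.00078. The genes of the group were chosen with earlier results of these data known, and the study already lists IL1A as changed. Both IL1A probe sets count among the 6. These shares and medians were therefore partly set in advance and are a description only. All differences are the mean log2 intensity of islets from 7-day-old pigs minus that of islets from 3-day-old pigs. The ages are those of the deposited sample labels. The direction they give is opposite to the study's for every gene it lists that is among the cytokines, pathway genes and markers tested here. Among them are IL1A, LIF, ICAM1, CXCL2, CXCL8, PTGS2, MMP1 and MMP3. The doubt therefore covers the whole comparison between the ages and each signed value in it. The sources do not settle which of these is right, so every direction stands as the deposited labels have it. The study's flow cytometry of immune cells, given with the cell type markers below, was not used to choose between the labels and the study's direction.

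The adjusted p of the 6 lay between 0.0199 and 0.0422. With 1 array left out at a time, between 0 and 4 of the 6 remained, with 0 without the third 3-day-old array and 1 without the second. The direction of these 6 probe sets was the same in every such fit. Since RNA was taken from whole islet preparations, fewer cells of a type and less RNA per cell cannot be told apart in any value given here.

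**Figure D1:**
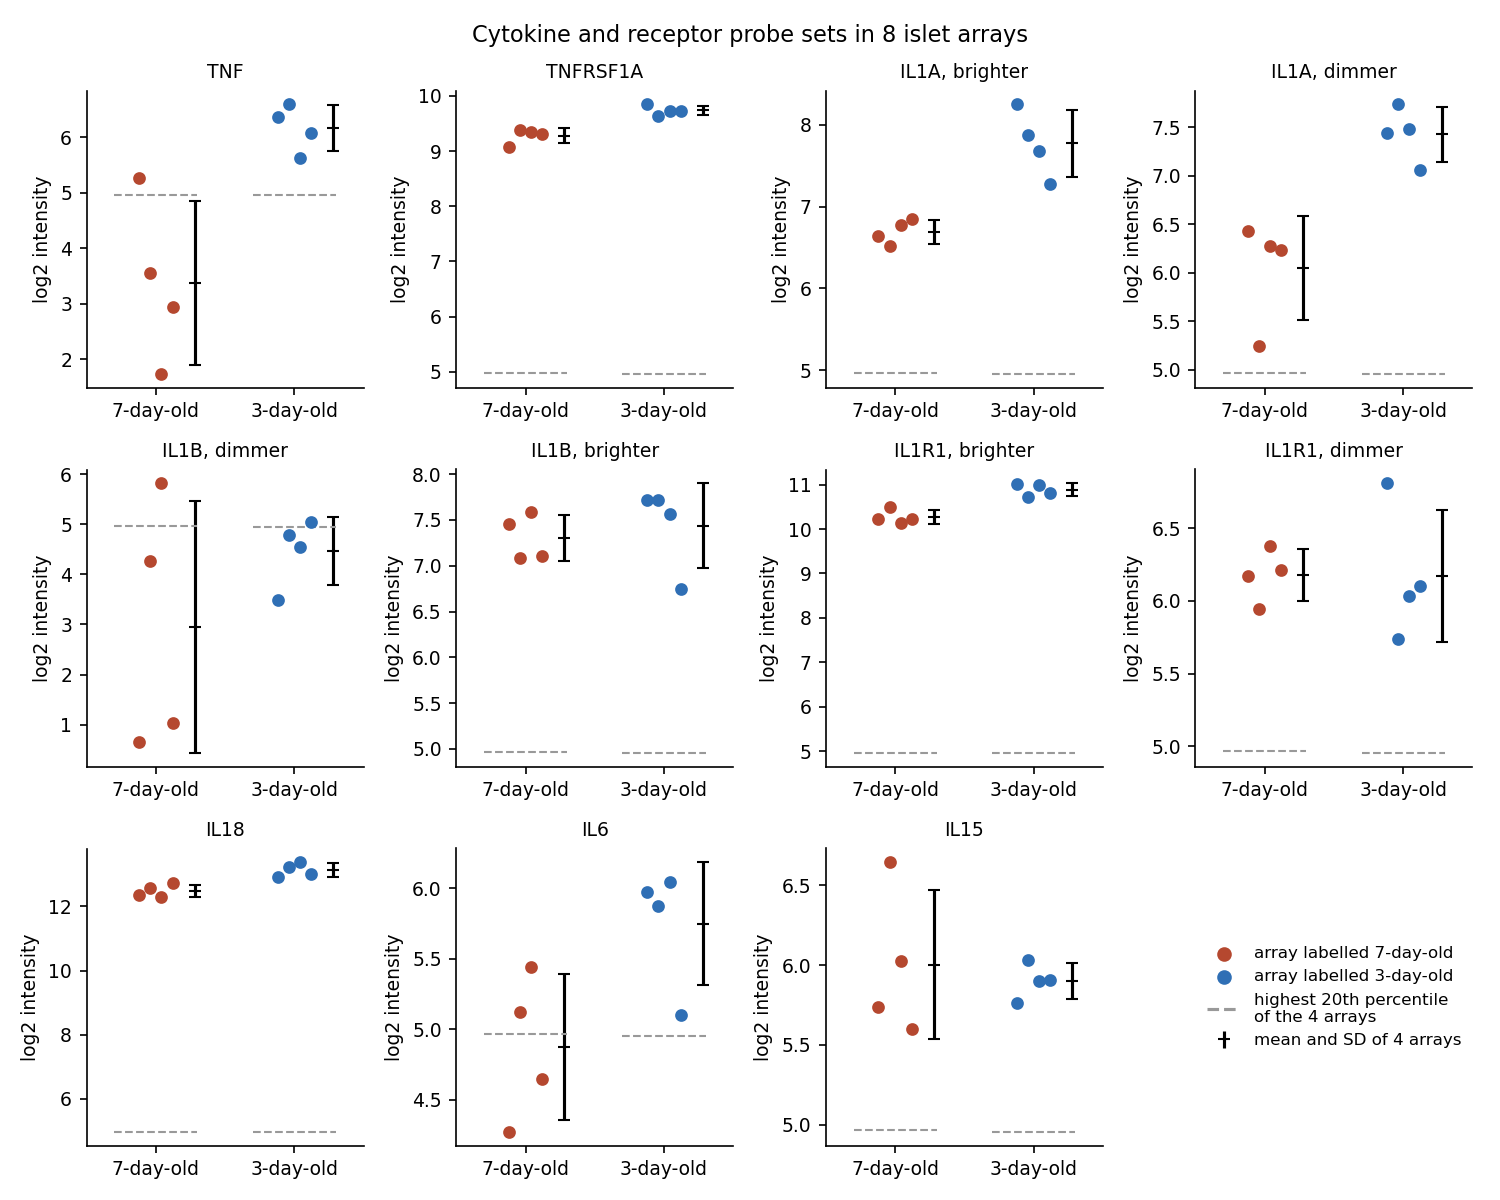
Log2 intensity (values below 1 set to 1) of the 11 probe sets, with 1 point for each array, the mean and SD of 4 arrays, and a dashed line at the highest 20th percentile of the arrays of that age. The vertical axes differ between panels. TNF, TNFRSF1A, both IL1A probe sets, the brighter IL1R1 probe set and IL18 show no overlap between the ages, and TNF of 7-day-old pigs lies mostly under the dashed line.

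IL1A, the membrane-associated and released agonist of the interleukin-1 receptor, was lower in islets from 7-day-old pigs by both of its probe sets. The brighter probe set gave intensities of 99.4, 91.5, 109 and 115 in arrays of 7-day-old pigs, against 305, 235, 205 and 154 in arrays of 3-day-old pigs. The 7-day-old arrays lay close together and all below the lowest 3-day-old array, and the spread was wider in the younger pigs, with an SD of 10.6 in 7-day-old and 62.8 in 3-day-old arrays (n = 4 each). The log2 difference was -1.08 (SE 0.204, 95% interval -1.55 to -0.60, limma adjusted p = 0.0199), which is 2.11-fold higher in 3-day-old pigs.

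The dimmer IL1A probe set gave 86.5, 38.0, 77.5 and 75.1 in 7-day-old arrays, against 173, 214, 179 and 133 in 3-day-old arrays. Here too no 7-day-old array reached the lowest 3-day-old array, and the second 7-day-old array was lower than the other three. Between the ages this gave a log2 difference of -1.38 (SE 0.278, 95% interval -2.03 to -0.73, limma adjusted p = 0.0234). Over the 8 arrays the log2 values of both probe sets had a Pearson correlation of 0.89, which includes the split between the ages, and of 0.49 within ages. The adjusted p rose to as much as 0.0587 for the brighter probe set and 0.0645 for the dimmer when 1 array was left out. The brighter passed the threshold in 4 of the 8 such fits and the dimmer in 5.

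IL1B, the secreted agonist that is cut to its active form by caspase-1, did not pass the test with either probe set. The brighter gave 175, 135, 192 and 137 in 7-day-old arrays, against 210.3, 211, 189 and 107 in 3-day-old arrays. The ages overlapped, and 1 array of 3-day-old pigs was the lowest of all 8. The log2 difference was -0.13 (SE 0.244, 95% interval -0.70 to 0.44, limma adjusted p = 0.773), and without that array it was -0.36 (adjusted p = 0.198).

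The dimmer IL1B probe set is of a type whose probes can be shared by several transcripts, and the RefSeq pig annotation lists a gene named IL1B2 besides IL1B. It gave 1.57, 19.4, 56.8 and 2.04 in 7-day-old arrays, against 11.3, 27.5, 23.6 and 33.3 in 3-day-old arrays. These are low values with a wide spread, and the highest and the lowest of all 8 were both in 7-day-old arrays. The log2 difference of -1.53 (SE 1.16, limma adjusted p = 0.442) changed sign to 0.07 when values under the 20th percentile were set to it. IL1A and IL1B are direct neighbours in the RefSeq annotation of the pig assembly Sscrofa11.1. The interval of the IL1B difference at its brighter probe set, -0.70 to 0.44, overlapped that of the brighter IL1A probe set but not that of the dimmer, and the difference between these genes was not tested.

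IL18, a member of the interleukin-1 family that is also activated by caspase-1, was lower in islets from 7-day-old pigs. Its probe set gave 5255, 6067, 5061 and 6770.5 in 7-day-old arrays, against 7706, 9581, 10718 and 8243 in 3-day-old arrays. All 4 arrays of the older pigs lay below all 4 of the younger pigs, and the signal was above the median of the array in all 8. This was a log2 difference of -0.64 (SE 0.145, 95% interval -0.98 to -0.31, limma adjusted p = 0.0327), which is 1.56-fold higher in 3-day-old pigs. The call held in 2 of the 8 fits with 1 array left out, with an adjusted p of up to 0.0842 in the others.

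IL1R1, the receptor chain that binds both interleukin-1 ligands, was lower in islets from 7-day-old pigs by the brighter of its probe sets. It gave 1198, 1450.4, 1124 and 1206 in 7-day-old arrays, against 2079, 1681, 2051 and 1798 in 3-day-old arrays. The groups did not overlap, and the second array of each age lay nearest to the other age. On the log2 scale they differed by -0.61 (SE 0.117, 95% interval -0.89 to -0.34, limma adjusted p = 0.0204), and it passed the threshold in 5 of the 8 fits with 1 array left out (adjusted p up to 0.0596).

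The dimmer IL1R1 probe set gave 72.0, 61.5, 83.1 and 74.2 in 7-day-old arrays, against 112, 53.4, 65.5 and 68.7 in 3-day-old arrays. The younger pigs held both the highest and the lowest value. The log2 difference was 0.0050 (SE 0.227, 95% interval -0.52 to 0.53, limma adjusted p = 0.993). The intervals of both IL1R1 probe sets overlapped, and the difference between them was not tested. Their log2 values had a Pearson correlation of 0.08 over the 8 arrays. In the RefSeq annotation IL1R1 lies among other receptor genes of the family, IL1RL2 and IL1R2.

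TNF, the ligand that gives its superfamily the name, was lower in islets from 7-day-old pigs and lay near the low mark of the arrays. Its probe set gave 38.6, 11.8, 3.31 and 7.63 in 7-day-old arrays, against 82.3, 97.1, 49.2 and 68.0 in 3-day-old arrays. Only the first 7-day-old array reached its 20th percentile, and even this value lay below the lowest 3-day-old array. The log2 difference was -2.80 (SE 0.685, 95% interval -4.39 to -1.20, limma adjusted p = 0.0422).

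The size of the TNF difference rested on values near the bottom of the scale. With values under the 20th percentile of their array set to it, a step added after the data were seen, the log2 difference was -1.24 (SE 0.217, limma adjusted p = 0.00896), smaller than the -1.38 of the dimmer IL1A probe set in the same fit, and with an offset of 16 it was -1.61 (adjusted p = 0.0164). Without a filter on low values the adjusted p was 0.0526, after quantile normalization 0.056, and by the methods' t-test 0.0757. With 1 array left out, TNF passed only without the first 7-day-old array (limma adjusted p = 0.0201), and the adjusted p reached 0.102 in the other fits.

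TNFRSF1A, the TNF receptor found on most cells, was also lower in islets from 7-day-old pigs, by a smaller step. The intensities were 540.5, 665, 648 and 634 in 7-day-old arrays, against 926, 801, 845 and 851 in 3-day-old arrays. The spread within an age was narrow, and the ages did not overlap. A log2 difference of -0.46 (SE 0.0975, 95% interval -0.69 to -0.24, limma adjusted p = 0.0271) was found, which is 1.38-fold higher in 3-day-old pigs. It passed the threshold only without the third 7-day-old array among the 8 fits with 1 array left out, with an adjusted p of 0.048 there and of up to 0.0676 in the others.

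IL6, which signals through the shared receptor chain gp130 and drives the acute phase response, did not pass the test. It gave 19.3, 34.8, 43.5 and 25.1 in 7-day-old arrays, against 62.7, 58.7, 66.1 and 34.3 in 3-day-old arrays. Of the younger pigs, 3 lay above all older ones, and the fourth lay among them. With all arrays the log2 difference was -0.88 (SE 0.308, 95% interval -1.59 to -0.16, limma adjusted p = 0.114), and the adjusted p stayed between 0.0618 and 0.226 with 1 array left out.

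IL15, a growth factor for T and NK cells that uses the common gamma chain, gave 53.5, 100.1, 65.2 and 48.4 in 7-day-old arrays, against 54.2, 65.5, 59.7 and 59.9 in 3-day-old arrays. The 3-day-old arrays lay within the range of the 7-day-old arrays. The log2 difference was 0.10 (SE 0.222, 95% interval -0.41 to 0.62, limma adjusted p = 0.805), and without the second 7-day-old array, the highest of the 8, it was -0.11.

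**Figure D2:**
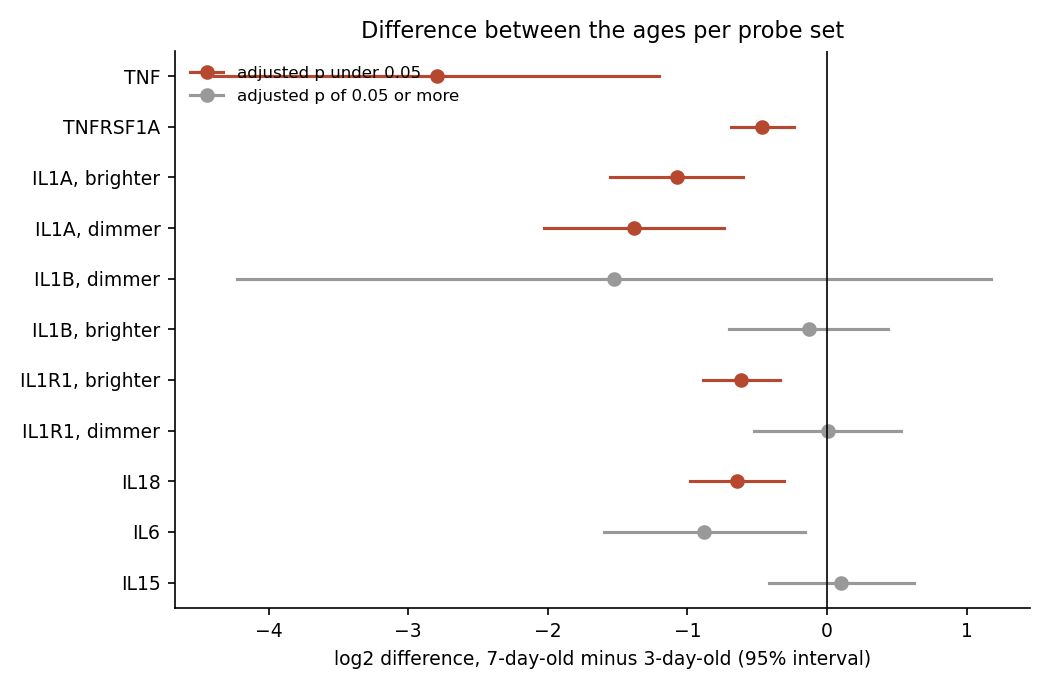
Log2 difference between 7-day-old and 3-day-old pigs for each of the 11 probe sets (point) with its 95% interval from limma (line), coloured by whether the adjusted p was under 0.05. The 6 coloured intervals lie below 0, from -0.46 for TNFRSF1A to -2.80 for TNF, and the interval of IL6 also lies below 0 without passing the adjusted threshold.

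**Figure D3:**
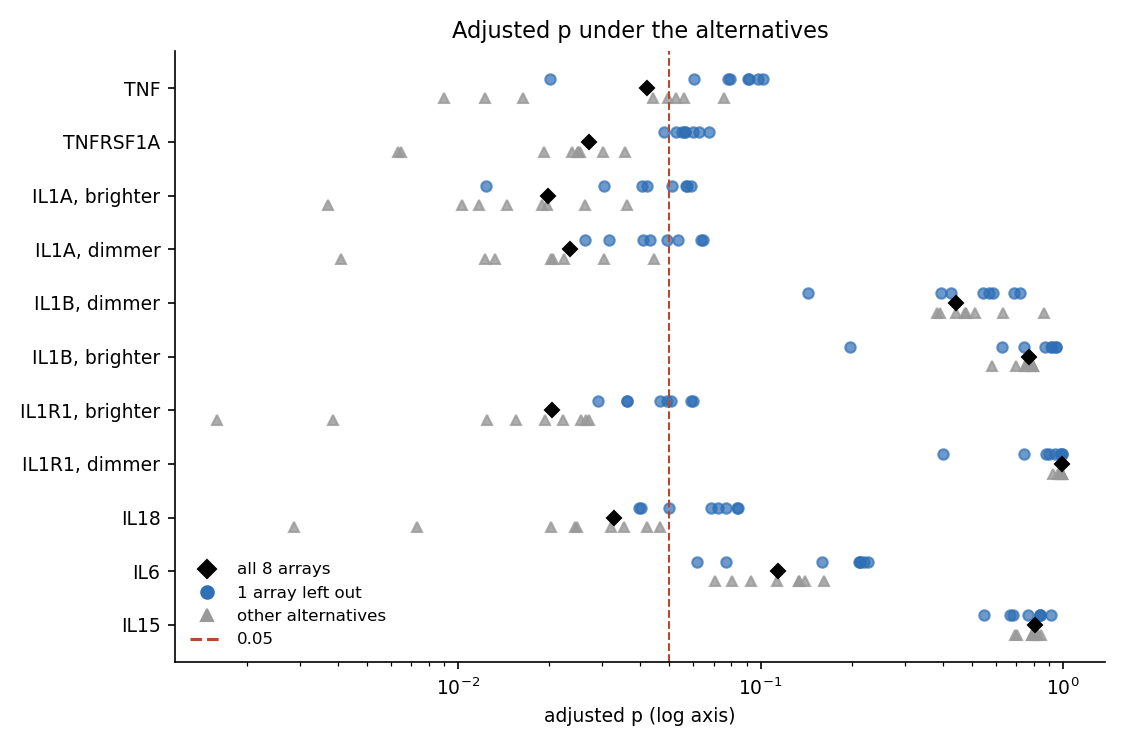
Adjusted p of each probe set, on a log axis, with all 8 arrays, with 1 array left out, and under the other alternatives except the replicate block. Of the called probe sets, TNF and TNFRSF1A pass 0.05 in 1 of the 8 fits with an array left out, IL18 in 2, the IL1A probe sets in 4 and 5 and the brighter IL1R1 probe set in 5.

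The genes around these cytokines were described from lists that were chosen with earlier results of these data known. The brightest probe set stood for each gene. Of all 6545 genes tested in this way, 12.2% passed the test, 5.03% as higher and 7.15% as lower in islets from 7-day-old pigs, with a median log2 difference of -0.02. In the list of receptors and ligands of the TNF superfamily, which also holds the protease ADAM17, 4 of 10 genes tested were lower and 0 higher, with a median of -0.59. TNFRSF21, a death receptor, gave 2366 to 2915 in 7-day-old arrays and 4235 to 4952 in 3-day-old arrays (log2 difference -0.79, SE 0.101, limma adjusted p = 0.00676). TNFRSF1B, the second TNF receptor, gave 412 to 559.6 in 7-day-old and 790.5 to 934 in 3-day-old arrays (-0.82, SE 0.123, limma adjusted p = 0.00991). CD40, the receptor of the T cell ligand CD154, and TNFRSF12A, the receptor of the ligand TWEAK, were lower, with log2 differences of -0.996 (SE 0.174) and -0.57 (SE 0.103), with limma adjusted p = 0.0155 and 0.0173.

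Few genes of the other cytokine and receptor lists passed the test, and these lists also hold genes that are neither ligands nor receptors. In the list for the rest of the interleukin-1 family, which includes caspase-1, 0 of 4 genes tested passed. IL18R1, a chain of the interleukin-18 receptor, stood at -0.46 (SE 0.285, limma adjusted p = 0.34). It reached the 20th percentile in 1 of 4 7-day-old and in 4 of 4 3-day-old arrays. IL18BP, the soluble decoy of interleukin-18, stood at -0.18 (SE 0.147, limma adjusted p = 0.489). In the list for the interleukin-6 family and its signalling, 1 of 6 genes was lower, LIF, a cytokine that also signals through gp130. The other genes of this list were the receptor chain IL11RA, the kinases JAK1 and JAK2, STAT3 and SOCS3. LIF gave 61.8, 69.2, 57.7 and 105 in 7-day-old arrays, against 279.8, 171, 184 and 158 in 3-day-old arrays, with no overlap (log2 difference -1.44, SE 0.245, limma adjusted p = 0.0146). In the list of interleukin-15 and the common gamma chain, 0 of 9 passed, and the 2 genes with the smallest p, the interleukin-4 receptor chain IL4R and the kinase JAK3, stood at -0.64 (SE 0.194, adjusted p = 0.0778) and -0.55 (SE 0.185, adjusted p = 0.101). In that list 1 gene passed without the fourth 3-day-old array.

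Inside the cell, the adaptors and kinases of both pathways lay near the median of all genes, with a list median of -0.02 and 1 of 15 genes lower. This was IRAK1, a kinase recruited by the interleukin-1 receptor, at -0.31 (SE 0.0720, limma adjusted p = 0.0369), and it passed in none of the fits with 1 array left out. Of 4 genes tested from the list of NF-kappa B subunits and inhibitors, 2 were lower. These 4 were NFKBIA, NFKBIB, TNIP1 and CYLD, and no NF-kappa B subunit was among them. NFKBIA, the inhibitor that NF-kappa B itself induces, gave 2618, 2493, 2179 and 2299 in 7-day-old arrays, against 4672, 3938, 3287 and 3566 in 3-day-old arrays, with no overlap (log2 difference -0.68, SE 0.129, limma adjusted p = 0.0199). TNIP1, which restrains TNF signalling, stood at -0.43 (SE 0.113, limma adjusted p = 0.0495), just inside the threshold. Between 0 and 2 of these 4 genes passed with 1 array left out.

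Genes known to be induced by interleukin-1 or TNF were the largest pathway list, with 10 of 24 genes lower in islets from 7-day-old pigs, 0 higher and a median of -0.87. This list holds genes that the study already names as changed on these arrays, and it was chosen with such results known. Its count and median were therefore partly set in advance and are a description only. The induced prostaglandin enzymes were among the lower genes, and for PTGS2 and the metalloproteinases MMP1 and MMP3, as for IL1A, the study gives the opposite direction. PTGS2, the inducible cyclooxygenase, gave 103, 142, 59.6 and 139 in 7-day-old arrays, against 1249, 1176, 1029 and 497 in 3-day-old arrays (log2 difference -3.15, SE 0.383, limma adjusted p = 0.0061). PTGES, which makes prostaglandin E from its product, was lower as well (log2 difference -1.12, SE 0.149, limma adjusted p = 0.00732). ICAM1, an adhesion molecule for leukocytes, gave 721 to 846 in 7-day-old arrays and 1488 to 2242 in 3-day-old arrays (log2 difference -1.16, SE 0.136, limma adjusted p = 0.00591).

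The chemokine CXCL2 (-1.45, SE 0.177), the complement component C3 (-0.93, SE 0.0994) and the collagenase MMP1 (-2.83, SE 0.39) were the other named members, with limma adjusted p = 0.0061, 0.00538 and 0.00787. CFB, VCAM1, CXCL8 and MMP3 made up the 10. The count ranged from 7 to 11 with 1 array left out. AMCF-II, also in the list, did not pass at its brightest probe set (log2 difference -0.23, SE 0.0976, limma adjusted p = 0.171). Its other probe sets passed, at -2.90 (SE 0.333, limma adjusted p = 0.00566) and -2.63 (SE 0.195, limma adjusted p = 0.00288). NOS2, the inducible nitric oxide synthase that interleukin-1 beta is known to switch on in rodent islets, gave 73.0 to 106 in 7-day-old arrays and 65.4 to 93.4 in 3-day-old arrays, which overlapped (log2 difference 0.18, SE 0.162, limma adjusted p = 0.514), and it was chosen for mention after its values were seen.

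**Figure D4:**
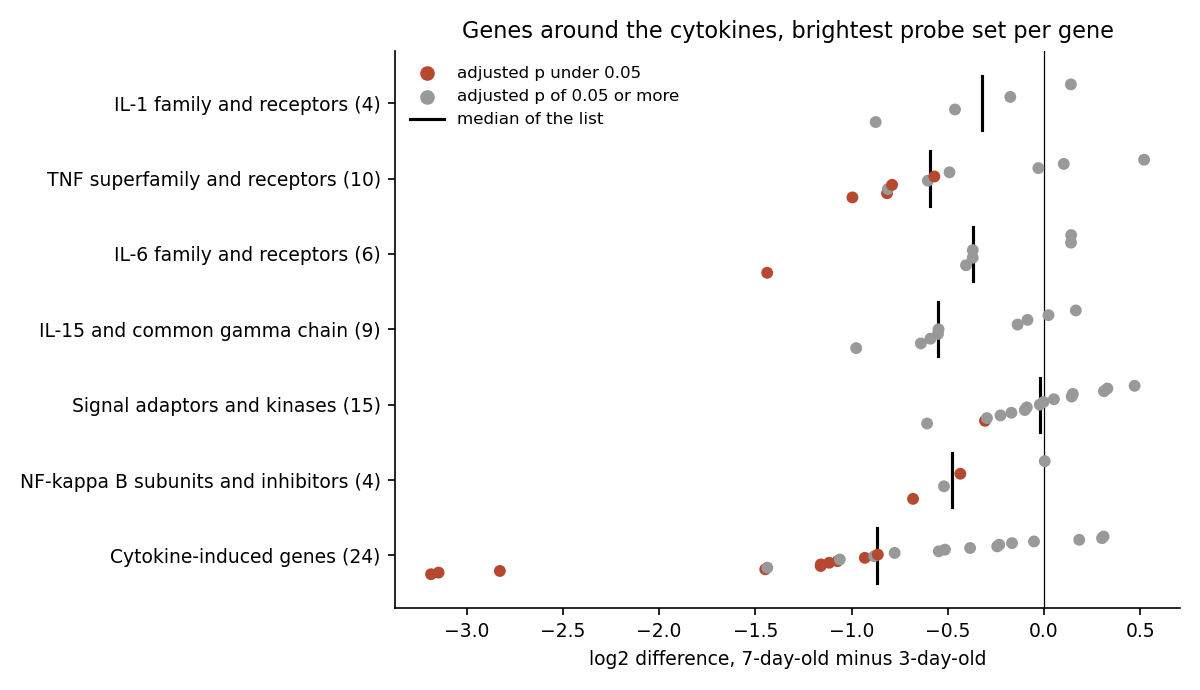
Log2 difference between 7-day-old and 3-day-old pigs for each gene of the 7 pathway lists (number of genes tested in brackets), at its brightest probe set, with the list median as a black line. Called genes all lie below 0, and the adaptors and kinases centre on -0.02 while the cytokine-induced genes have a median of -0.87. The lists were chosen with earlier results of these data known.

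Markers of the cell types in the preparations were read on the same arrays. All 10 islet endocrine markers tested reached the 20th percentile in all 8 arrays, with INS between 19881 and 29628 in 7-day-old arrays and between 21868 and 27189 in 3-day-old arrays. Of 11 macrophage and monocyte markers measured, 1 was lower in 7-day-old pigs, TYROBP, and 0 were higher. TYROBP reached the 20th percentile in 1 of 4 7-day-old and in 4 of 4 3-day-old arrays. The summed intensity of the 11 markers was 493 to 866 in 7-day-old arrays and 821 to 2327 in 3-day-old arrays. The first 3-day-old array had the highest macrophage sum of the 8, and it also had the highest value of IL1A at its brighter probe set and of TNFRSF1A, both IL1R1 probe sets, LIF, NFKBIA, PTGS2, ICAM1 and CXCL2. The second 3-day-old array was the highest for TNF, the dimmer IL1A and the brighter IL1B probe set, and the third for IL18, IL6, PTGES, C3 and MMP1. Common leukocyte markers summed to 1345 to 1563 in 7-day-old and 1748 to 2262 in 3-day-old arrays, with 2 of 7 lower, LAPTM5 and LCP1, and PTPRC, which defines leukocytes, reached the 20th percentile in 1 of 8 arrays. LCP1 passed at 1 of its 5 probe sets tested, and the others stood between -0.41 and -0.11. It was the largest member of the sum, with means of 657 and 989. ITGB2 was higher in 7-day-old pigs with no overlap, without passing (log2 difference 0.54, SE 0.142, limma adjusted p = 0.0512).

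Markers of other cell types were read in the same way. Markers of T, NK and B cells summed to 384 to 482 in 7-day-old and 387 to 491 in 3-day-old arrays, with 1 of 9, CD247, higher in 7-day-old pigs. CD247 passed at 1 of its 3 probe sets tested, and the others stood at 0.65 and -0.19. With the mean of all probe sets of a gene, 0 genes of this list passed. Endothelial markers summed to 598 to 746 in 7-day-old and 1567 to 2009 in 3-day-old arrays, with 4 of 8 lower. TIE1, counted among these, reached the 20th percentile in 0 of 4 7-day-old and in 4 of 4 3-day-old arrays. It was thus tested only through its 3-day-old values. Fibroblast and stellate markers summed to 4274 to 6959 in 7-day-old and 9111 to 13435 in 3-day-old arrays, with 5 of 8 lower. Of 6 duct markers 2 and of 4 acinar markers 1 were lower, and of 10 islet endocrine markers 4 were higher in 7-day-old pigs. With 1 array left out, 0 to 2 macrophage markers, 0 to 1 common leukocyte markers and 2 to 5 fibroblast and stellate markers passed. The part of these markers in the cytokine and receptor differences was not tested. By flow cytometry, the study reports larger shares of T cells, B cells, macrophages and leukocytes in islets of the older pigs. Under the deposited labels, the mean macrophage sum was 652 in 7-day-old and 1320 in 3-day-old arrays. The mean common leukocyte sum was 1463 and 1972, and that of T, NK and B cell markers 445.5 and 445.7. Of these 9 T, NK and B cell markers, 2 reached the 20th percentile in all 8 arrays, CD247 and CD8B. Their means were 190 and 98.2 in 7-day-old, against 138 and 133 in 3-day-old arrays. With most members near the low mark, this sum cannot show whether lymphocyte content was equal. The reason for the difference between the marker sums and the study's flow cytometry was not tested.

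**Figure D5:**
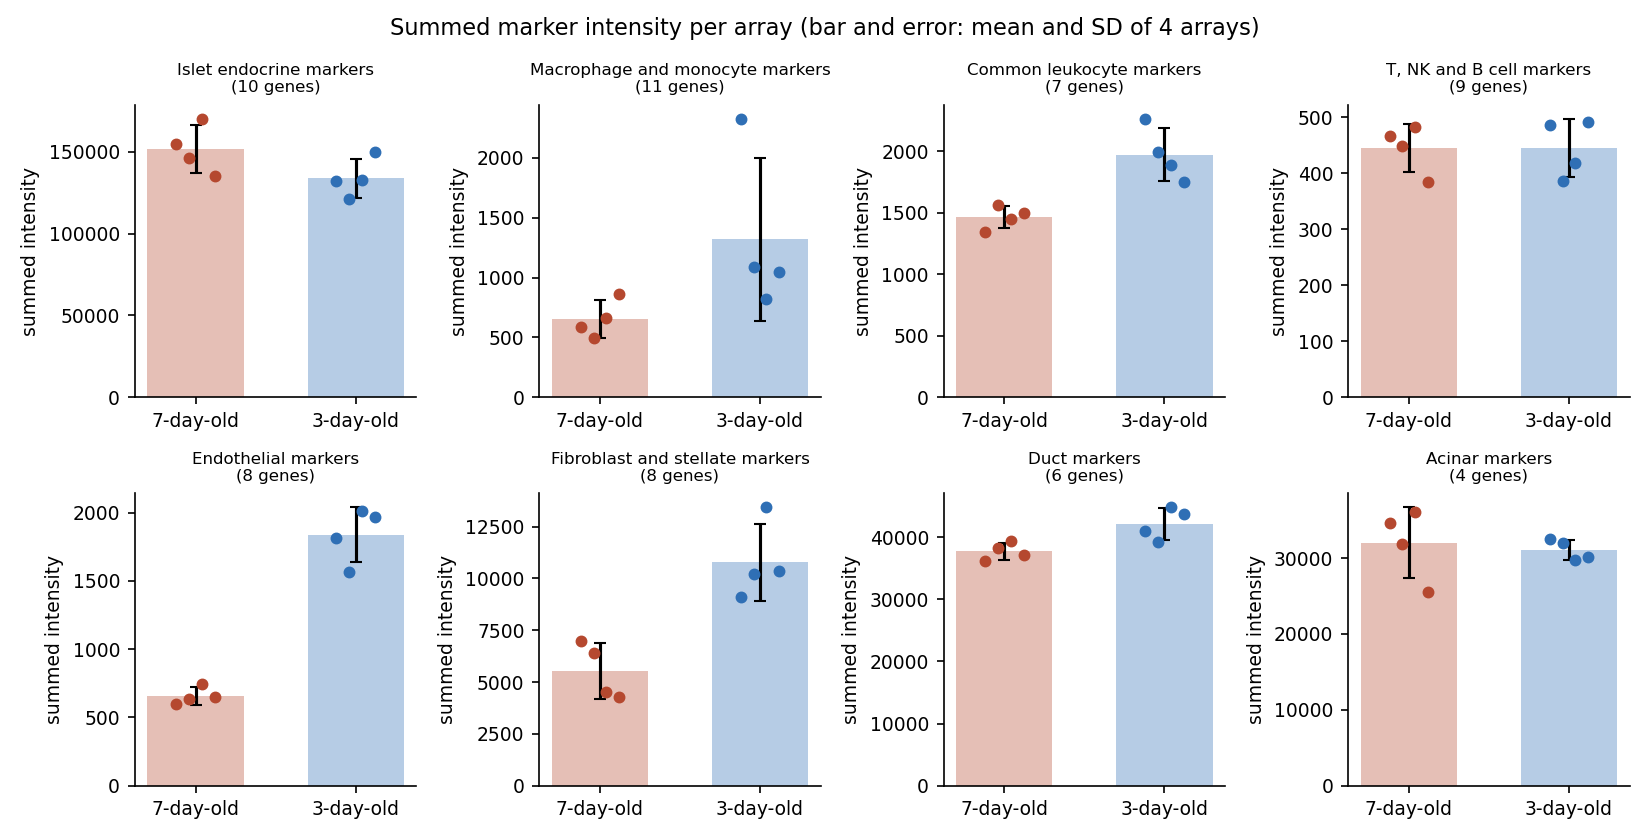
Summed intensity of the measured markers of each cell type in each array (points), with the mean as a bar and the SD of 4 arrays as an error line. Sums of common leukocyte, endothelial and fibroblast and stellate markers do not overlap between the ages and are lower in 7-day-old pigs, while those of macrophage, duct, acinar, T, NK and B cell and islet endocrine markers overlap.

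The genes whose profile over the 8 arrays was most like that of a called cytokine or receptor probe set were listed as a description, by Pearson correlation of log2 intensity, which includes the split between the ages. They are the highest of all genes searched over only 8 arrays, so high values of r follow partly from the search itself. The TNF profile also holds values that reached the 20th percentile in 1 of 4 7-day-old arrays only. For TNF these were PON2 (r = 0.978), SEPT11 (0.969) and MYADM (0.964), and for TNFRSF1A they were C17H20orf24 (0.99), LOC100519643 (0.982) and RBPMS (0.973). The brighter IL1A probe set was closest to FGL2 (0.986), MUC4 (0.982) and OLFM4 (0.978), and the dimmer to TSKU (0.994), TNS3 (0.982) and FEZ1 (0.968), so that no gene stood in both lists. The brighter IL1R1 probe set was closest to CTSC (0.988), IER2 (0.98) and PLPP2 (0.979), and IL18 to HABP2 (0.983), RALA (0.979) and RPIA (0.978).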

How the data were processed

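RNA of 8 islet preparations, 4 from 7-day-old and 4 from 3-day-old pigs, was measured on 1 array each. The deposited values are linear intensities of 24123 probe sets, which the authors had brought to a common level: without the top and bottom 2%, the mean was 500.1 in every array. How probes were summarised is not stated by the sources. Intensities under 1 were set to 1 and put on the log2 scale. Control probe sets (124) were left out, and 21574 probe sets that in at least 1 array lay at or above its 20th percentile were tested. The test between the ages was two-sided, without covariates, by lmFit and eBayes of limma 3.58.1 (R 4.3.3), with Benjamini-Hochberg adjustment over all probe sets tested and a threshold of 0.05. The test was tried on simulated data first. The number of arrays limits the precision.

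Gene names came from the platform annotation, in which 10069 probe sets had 1 symbol, 198 several and 13732 none. Every probe set of the cytokine group was named, up to 6 called genes of each pathway list by adjusted p (2 where none was called), and the 3 genes most like each called probe set. The members and lists were chosen with earlier results of these data known. Alternatives were no filter, a filter at the 50th percentile in 4 arrays, the methods' t-test, an intensity trend with robust variances, quantile normalization, median centring, an offset of 16, a block for the replicate number, weights for array quality, leaving out each array, the mean of all probe sets of a gene in the lists and, added after the data were seen, a floor at the 20th percentile of the array. RefSeq (Sscrofa11.1) gave neighbouring genes only, and no sequences or positions were used. Python 3.11.15 with pandas 2.3.3 and matplotlib 3.10.9 served for tables and plots.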

Additional observations from a re-analysis of the deposited data

Results flagged for a closer look

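In 6 of 58 groups of 4 arrays, taken over 29 named probe sets, 1 array lay so far from the other three that its gap to the nearest, as a share of the range of the group, exceeded Dixon's 95% critical value. Chance flags about 1 in 20 groups. The brighter IL1B probe set was lowest in the fourth 3-day-old array, with 107.4 against 189, 210.3 and 211.2 in the others. The same array had the lowest IL4R intensity of its age, with 1453 against 2101 to 2265. The first 3-day-old array was highest for TNIP1, with 666.7 against 559.8 to 575.6, and for CXCL2, with 4408 against 2957 to 3074. Among 7-day-old arrays, IL18BP was highest in the second, with 442.1 against 324.8 to 339.7. IRAK1 was lowest in the fourth, with 893.3 against 915.5 to 916.9, a narrow range in all.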

How the results depend on the processing

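With the replicate number as a block, 0 of 21574 probe sets and 0 of 11 cytokine and receptor probe sets passed (5264 and 7 at an unadjusted p under 0.05), and no gene of the 15 lists did. The sources do not say that equal numbers pair the pigs or were processed together. Residual correlations between equal numbers lay between -0.0135 and 0.00487. Such values cannot show whether equal numbers shared a processing step, which was not tested. Over all probe sets, 2305 passed as reported, 3491 with an intensity trend and robust variances, and 1008 to 1854 with 1 array left out. Among the cytokine and receptor probe sets, 6 passed as reported, 3 under the stricter filter, which left 4 of them to test, and 0 to 4 with 1 array left out. Without a filter, by the methods' t-test and after quantile normalization 5 passed, all but TNF, and under each other alternative 6 did. The sign changed only for probe sets that did not pass. The dimmer IL1B probe set stood at 0.074 with the floor at the 20th percentile. The dimmer IL1R1 probe set stood at -0.0023 with the offset and -0.021 with array weights, and ranged from -0.139 to 0.218 with 1 array left out. IL15 ranged from -0.11 to 0.239. The cause of these changes was not tested. Values under the 20th percentile, as in 3 of 4 7-day-old arrays for TNF, limit the size of a difference that can be measured.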

Other observations

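The arrays with the lowest and highest values were not the same for all probe sets. Among the 3-day-old arrays, the fourth was the lowest for 4 of the 11 cytokine and receptor probe sets, namely both of IL1A, the brighter of IL1B and IL6, and for 11 of 24 cytokine-induced genes. The first 3-day-old array was the highest for 4 of the 11 probe sets and for 10 of the 24 genes, and the second was the highest for 4 of the 11 and for 1 of the 24. Among the 7-day-old arrays, the third was the lowest for 3 of the 11 probe sets and for 10 of the 24 genes. No source says whether any sample had the additional amplification round, and its part in these values was not tested.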
